A study of Canis lupus familiaris with 2 samples.

Results

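DNA methylation was higher in MDCK cells kept with TGF-beta than in untreated MDCK cells over long stretches of the dog genome, and 3 of these were examined. In the canFam3 build, the one on chromosome 15 spans positions 53700001 to 54600000. On chromosome 1 it spans positions 19900001 to 20500000, and on chromosome 13 positions 14800001 to 15300000. The stretches are called blocks here, and 500 kb on each side of a block are called its flanks. Each block was cut into fixed windows of 1000 bp, and a window was kept where at least 5 CpG sites had at least 5 calls in both libraries. That left 478 of 900 windows on chromosome 15, 505 of 600 on chromosome 1 and 246 of 500 on chromosome 13, which is 1229 of the 1497941 such windows in the genome. The blocks are runs of adjacent 100 kb steps chosen because each step was at least 10 points higher in the TGF-beta library, so the size and the sign of that difference are a description and were not tested. No gene is named, because no annotation of canFam3 was used here.

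MDCK is an established epithelial line from dog kidney. The TGF-beta culture, labelled mesenchymal, received TGF-beta at 5 ng/ml for 30 days, and the control culture, labelled epithelial, was untreated and was kept in parallel for the same time in the same medium. TGF-beta is a signalling protein under which epithelial cells can lose their contacts and take on mesenchymal features. Each group has 1 bisulfite library, so no value below has a replicate check, and culture, library and treatment cannot be told apart.

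Methylation of cytosine in CpG pairs is put in place by DNA methyltransferases and copied after replication by a maintenance enzyme. In cultured and cancer cells, long stretches with few CpGs and little transcription often keep intermediate levels and are known as partially methylated domains, whereas CpG-dense promoters are usually free of methylation. A level here is the share of calls at CpG sites that were methylated, in percent, and a difference is the TGF-beta level minus the control level, in percentage points. A site joins the cytosines of both strands. A level from a bulk culture is an average over cells, so a change in all cells and a change in the mixture of cells cannot be told apart.

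Per site, the median number of calls inside the blocks was between 30 and 45 in the TGF-beta library and between 23 and 34 in the control. The libraries' log2 depth ratio in the blocks, TGF-beta over control, was 0.42 on chromosome 15, 0.55 on chromosome 1 and 0.47 on chromosome 13, against 0.66 over the covered sites of the genome. In the flanks it lay between 0.35 and 0.48. Its part in the differences was not tested. Ranges after a level or share are exact binomial intervals at 95% that cover only the error of counting. Reads and sites of a window share molecules, and the variance between strands of 1 window was 5.12 times what binomial counting gives in the TGF-beta library and 2.81 times in the control, on average over windows, so these intervals are too narrow.

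The 3 blocks were alike in level in each library. On chromosome 15 the level was 69.8% (69.5 to 70.0) in the TGF-beta library and 50.4% (50.1 to 50.7) in the control, over 4197 sites with 145659 and 109089 calls. On chromosome 1 it was 68.7% (68.6 to 68.9) in the TGF-beta library and 49.7% (49.5 to 50.0) in the control, over 6670 sites. On chromosome 13 it was 70.0% (69.7 to 70.3) in the TGF-beta library and 50.9% (50.6 to 51.3) in the control, over 2185 sites. The differences were thus 19.4, 19.0 and 19.1 points. With each site weighted equally they were 17.9, 17.7 and 17.4 points. Each strand showed the difference. Plus-strand calls gave 17.5 points on chromosome 15, 20.2 on chromosome 1 and 17.2 on chromosome 13. Minus-strand calls gave 20.9, 17.6 and 19.2 points.

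The blocks differed in their surroundings. The chromosome 15 block lay between flanks of low to intermediate level, at 55.9% in the TGF-beta library and 47.6% in the control on the left and at 47.9% and 41.4% on the right. The block was above both flanks in each library. The chromosome 1 block lay between a low and a high region. Its left flank was at 40.01% in the TGF-beta library and 36.8% in the control, and its right flank at 76.2% and 75.8%. The chromosome 13 block had a left flank at 61.5% in the TGF-beta library and 55.4% in the control, and a right flank at 44.3% and 38.3%. Flank differences were 8.30 and 6.54 points on chromosome 15, 3.23 and 0.319 on chromosome 1, and 6.11 and 5.97 on chromosome 13, left flank first. CpG sites were also unequally dense: the block on chromosome 1 held 12.4 listed sites per kb, against 6.91 on chromosome 15 and 6.33 on chromosome 13.

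**Figure D1:**
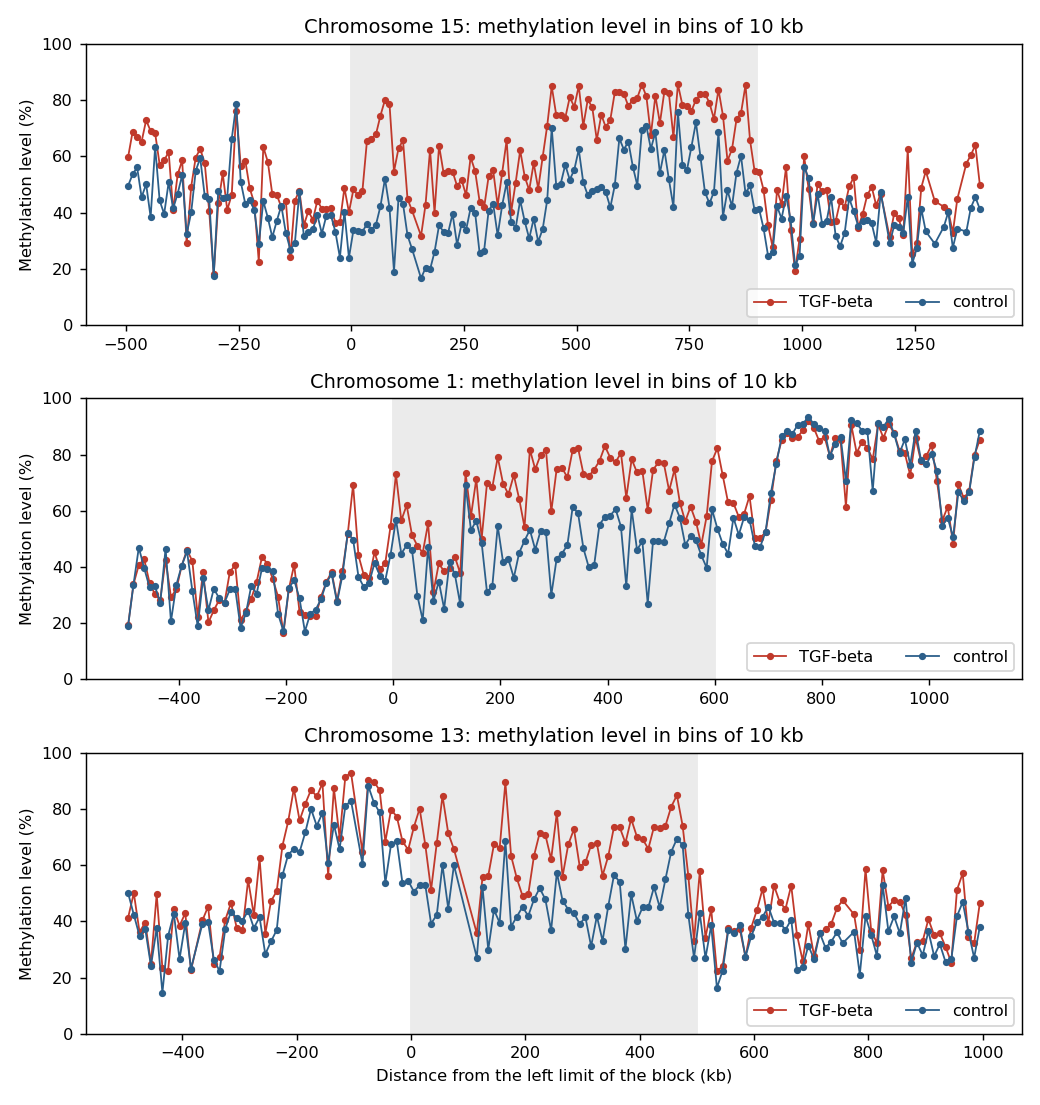
Methylation level (%) in bins of 10 kb with at least 20 covered sites, TGF-beta in red and control in blue, against the distance from the left limit of each block in kb. The block is shaded, with 500 kb of flank on each side. The red line runs above the blue one in each bin of the blocks except 1 on chromosome 1, and on chromosome 1 the lines come together again in the highly methylated right flank.

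In steps of 100 kb, the chromosome 15 block fell into a low left part and a higher right part. Over its first 4 steps the level was between 53.2% and 60.7% in the TGF-beta library and between 33.2% and 40.2% in the control. The differences there were 21.6, 20.0, 16.4 and 12.98 points, in order along the chromosome. Over the last 5 steps the level was between 69.7% and 81.0% in the TGF-beta library and between 51.1% and 62.8% in the control. There the differences were 22.1, 24.5, 18.2, 18.7 and 18.6 points. The parts thus differed in level by more than they differed in gain, and the step between them stood in each library. Taken as a share of what was unmethylated in the control, the gain was 21.7% in the fourth step and 50.5% in the sixth. The first steps outside the block limits differed by 5.65 points on the left and 5.48 on the right. The flanks were not uniform: their outermost steps differed by 13.7 points on the left and 13.8 on the right, more than the fourth step of the block. With sites weighted equally these were 10.8 and 8.71 points, against 10.75 in the fourth step.

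On chromosome 1 the gain by steps of 100 kb was largest in the middle. The 6 steps differed by 12.1, 13.7, 26.1, 26.2, 24.0 and 11.7 points. The control level varied little over these steps, between 44.2% and 52.0%, whereas the TGF-beta level was between 72.9% and 77.7% in the 3 middle steps and between 56.3% and 63.6% in the 3 outer ones. The last step, at 11.7 points, lay just inside the 10 points that set the blocks, and the next step to the right, at 8.73 points, just outside. The step to the left of the block differed by 8.01 points. Weighting sites equally, that step differed by 3.65 points and the first step of the block by 8.27. Within the last step of the block, the bins of 10 kb starting from 20430001 to 20470001 differed by between 3.76 and 10.6 points. Those starting at 20480001 and 20490001 differed by 18.3 and 17.2 points, and the bin at 20500001, beyond the block limit, by 28.6. The gain thus dipped inside that step and rose again, and did not fade steadily outward.

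On chromosome 13 the 5 steps differed by 19.2, 13.9, 18.6, 24.6 and 16.6 points. The TGF-beta level was between 64.0% and 73.4% and the control level between 45.2% and 56.7%. Just outside, the difference was 7.73 points in the step to the left and 3.59 points in the step to the right. The left step was already at 76.1% in the TGF-beta library and 68.4% in the control, and so lay above the block in both libraries.

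Block limits at multiples of 100 kb say little about where a gain starts, so edges were placed at 10 kb. For each side, the differences of 10 kb bins from the end of the flank to the middle of the block were split at the position that left the least variance within the parts. On chromosome 1 the left edge was at 20070001, which is 170 kb inside the block limit. The mean bin difference was 27.2 points inside it and 3.80 points outside. The last bin before the edge was at 50.1% in the TGF-beta library and 48.6% in the control. The first bin after it was at 69.9% in the TGF-beta library and 30.9% in the control. Over the 5 nearest bins on each side, the TGF-beta level averaged 70.6% inside and 58.1% outside, and the control level 40.7% inside and 50.8% outside. The control bins were uneven, between 26.7% and 69.1% outside, so a fall of the control there is a local description. Split by itself in the same way, the control level rose toward the block, at 19800001, from a mean of 30.9% to 42.1%. The TGF-beta level rose at 20030001, from 37.3% to 69.1%.

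The right edge on chromosome 1 was at 20530001, which is 30 kb outside the limit, with a mean difference of 21.7 points inside and -0.497 outside. It did not fall on the border of the highly methylated region. The control level, split by itself in the same way, changed at 20600001, from a mean of 50.5% on the block side to 80.6% beyond, and the TGF-beta level at 20610001. Between the edge of the gain and that border lay a stretch at intermediate level, at 59.0% in the TGF-beta library and 54.2% in the control over its first 5 bins. Between its edges the block spanned 460 kb and was at 71.7% in the TGF-beta library and 50.3% in the control, a difference of 21.4 points.

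On chromosome 15 the right edge was at 54590001, and it was also the split of each library's own level. The mean of the bins was 76.8% inside and 43.8% outside in the TGF-beta library, and 54.9% inside and 36.5% outside in the control. A step at that position was therefore present without treatment, and it was 33.0 points in the TGF-beta library and 18.5 points in the control. The difference had a mean of 21.9 points inside and 7.32 outside. It did not end sharply there: over the 5 nearest bins on each side it averaged 21.8 points inside and 10.7 outside. The left edge of the difference, at 53690001, matched no step of either library's own level, which were split at 53300001 in the TGF-beta library and 53480001 in the control. There the mean difference was 19.7 points inside and 6.83 outside, and the split left much of the variance unexplained: it took up 36.7% of it, against 63.1% and 75.7% for the edges on chromosome 1.

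On chromosome 13 the right edge of the difference was at 15270001, and both libraries' levels were split at 15290001. The TGF-beta level was 69.3% inside and 39.6% outside that position, and the control level 47.5% inside and 34.1% outside. The mean difference was 22.8 points inside the edge at 15270001 and 5.67 outside. Over the 5 nearest bins on each side it averaged 20.1 points inside and 9.77 outside. The left edge, at 14750001, was the least well placed of the 6. It separated means of 17.2 and 5.99 points, took up 36.5% of the variance, and moved to 14560001 when sites were weighted equally and to 14820001 on the plus strand alone. Both libraries' own levels rose at 14570001, at the left end of the highly methylated stretch that precedes the block.

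**Figure D2:**
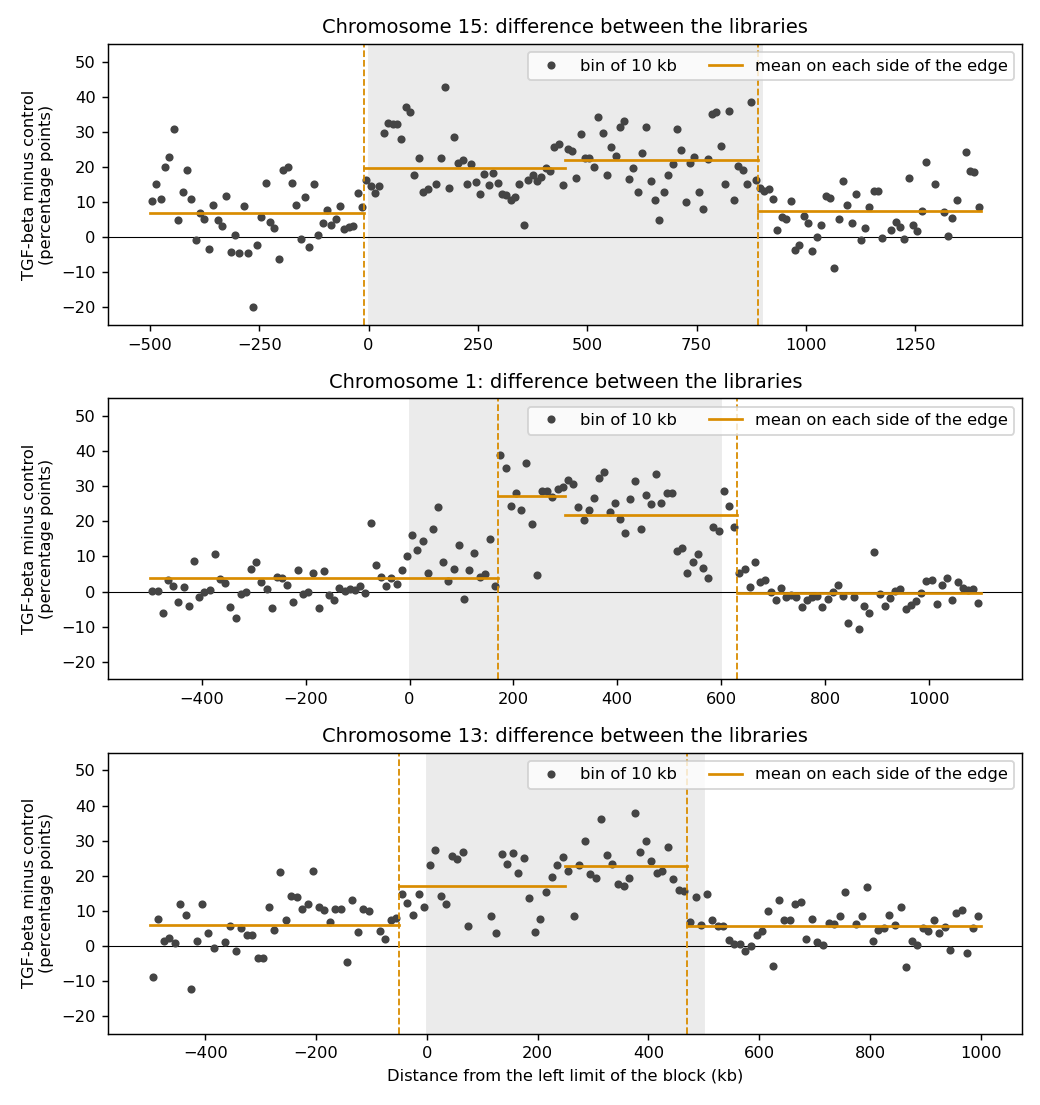
Difference in methylation (TGF-beta minus control, percentage points) in bins of 10 kb against the distance from the left limit of each block in kb. Dashed lines mark the edges, and solid lines the mean difference on each side of an edge, with separate fits for the left and right part of a block. The drop at both edges on chromosome 1, to means of 3.80 and -0.497 points, can be set against the flanks on chromosomes 15 and 13, whose means stay between 5.67 and 7.32 points.

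Most windows of each block were higher in the TGF-beta library, and few were much lower. The median window difference was 18.8 points on chromosome 15 (quartiles 10.7 and 28.3), 19.9 on chromosome 1 (9.26 and 29.8) and 18.3 on chromosome 13 (10.3 and 27.7), against 0.443 over all windows of the genome (-3.41 and 4.40). A call needed a difference of at least 20 points and an adjusted p under 0.05, from Fisher's exact test (two-sided) of the calls in a window with Benjamini-Hochberg adjustment over all windows. By that rule 224 of 478 windows on chromosome 15, 250 of 505 on chromosome 1 and 110 of 246 on chromosome 13 were called higher. Over the genome 2.22% of windows were called higher and 1.43% lower. Since the blocks were chosen on this contrast, nothing is read from these counts, and the test compares 2 libraries and not the conditions. With variances scaled by the factors between strands, 107, 207 and 69 windows were called higher. Of windows covered on each strand, 232 of 289 on chromosome 15, 361 of 421 on chromosome 1 and 162 of 190 on chromosome 13 were higher on each strand, beside 31.3% of such windows in the genome.

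The order of windows within a block was partly kept. Across the windows of a block the TGF-beta and control levels were correlated with r = 0.77 on chromosome 15, 0.64 on chromosome 1 and 0.75 on chromosome 13, against 0.95 over all windows. The windows of a block share libraries and depth and span a narrower range of levels than the genome, so the values describe these libraries. The spread of window levels within a block was about the same in each library: the SD was 20.1 points in the TGF-beta library and 19.5 in the control on chromosome 15, 18.2 and 17.9 on chromosome 1, and 16.7 and 18.7 on chromosome 13.

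Windows that did not gain were taken as those with a difference under 5 points. There were 61 of them on chromosome 15, 12.8% of its windows (9.90 to 16.1), 80 on chromosome 1, 15.8% (12.8 to 19.3), and 27 on chromosome 13, 10.98% (7.36 to 15.6). Over the genome 77.3% of windows were under that limit. Just inside the limit, 35, 40 and 13 windows differed by 0 to 5 points, and just outside it, 52, 56 and 32 differed by 5 to 10 points, in the same order of blocks. Below 0 lay 26, 40 and 14 windows. By counting error alone, the interval of the difference stayed under 5 points in 16, 31 and 12 windows. At 80% or more in the control were 8 of the 61 windows that did not gain and 15 of the other 417 on chromosome 15, 10 of 80 and 3 of 425 on chromosome 1, and 2 of 27 and 6 of 219 on chromosome 13. Under 20% in the control were 5, 4 and 3 of the windows that did not gain and 39, 37 and 20 of the others. Of the windows under 20% in both libraries, 3 of 4, 4 of 6 and 2 of 2 did not gain. A low level in the TGF-beta library itself leaves little room for a gain, so nothing is read from those. The difference that sets these classes uses the same control calls, so the counts are a description. The median level of windows that did not gain was 53.2% in the TGF-beta library and 53.9% in the control on chromosome 15, 50.2% and 51.8% on chromosome 1, and 48.0% and 54.2% on chromosome 13.

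**Figure D3:**
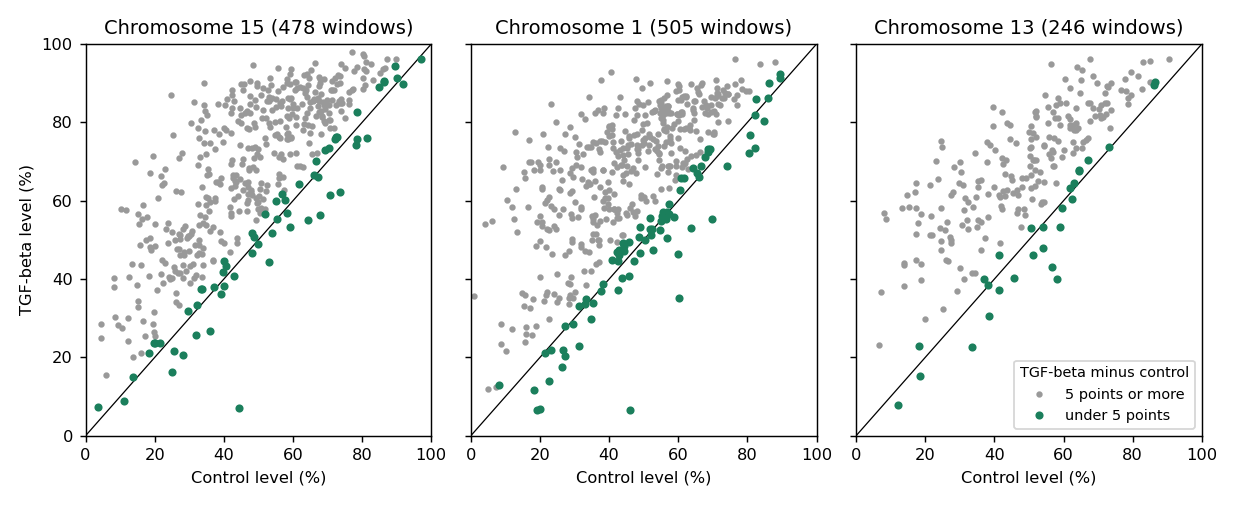
Level of each 1000 bp window in the TGF-beta library against its level in the control (both in %), for the 3 blocks. Windows with a difference under 5 points are green, the others grey, and the line marks equal levels. The green windows run along the whole range of control levels, and 8, 10 and 2 of them lie at 80% or more in the control on chromosomes 15, 1 and 13.

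On chromosome 1 the windows that did not gain lay mostly in its outer parts. The first, second and sixth steps of 100 kb held 69 of the 80, and the 3 middle steps held 11 of their 268 windows. The longest run of adjacent ones, 8 windows with 156 sites from 20056001 to 20064000, ended just before the left edge. It was at 56.7% in the TGF-beta library and 61.7% in the control. On chromosome 15 they were most frequent in the fourth step, at 16 of 66 windows, and least in the fifth, at 2 of 74. On chromosome 13 the second step held 7 of 28 and the fourth 3 of 57. Runs of 1 such window made up 50 of 55 runs on chromosome 15, 37 of 52 on chromosome 1 and 23 of 25 on chromosome 13. Fewer windows were kept on chromosomes 15 and 13, which shortens runs there, so these counts are not compared between blocks. Outside the edges of the gain lay 42 of the 80 windows on chromosome 1, among 120 block windows there. Over all windows between the edges, 12.8%, 9.36% and 12.7% did not gain on chromosomes 15, 1 and 13. Chromosome 1 then had the lowest share and not the highest. The edges were placed on the same differences.

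A low difference on 1 strand often stood beside a gain on the other. Windows under 5 points on the plus strand had a median difference on the minus strand of 12.98 points on chromosome 15, 9.17 on chromosome 1 and 8.96 on chromosome 13. Windows classed on the minus strand had medians of 9.61, 8.73 and 3.33 points on the plus strand. For comparison, windows that gained 5 points or more on the plus strand had minus-strand medians of 19.8, 22.9 and 19.9 points. Under 5 points on each strand were 12 of 289 windows on chromosome 15, 21 of 421 on chromosome 1 and 15 of 190 on chromosome 13. Over the genome they were 683824 of 1126376. Of windows under 5 points on the plus strand, 12 of 44, 21 of 64 and 15 of 38 were thus also under 5 points on the minus strand. Of windows at 5 points or more on the plus strand, 41 of 245, 41 of 357 and 15 of 152 were under 5 points on the minus strand. Over all windows of the genome, 80.6% of those under 5 points on the plus strand were under it on the minus strand too, and 59.2% of the others.

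The windows with the largest and smallest differences were compared among those with at least 10 sites and 200 calls in each library, which were 128, 299 and 70 windows. The largest gain on chromosome 15, at 54270001 to 54271000, was a window at 89.8% (86.2 to 92.8) in the TGF-beta library and 46.0% (41.2 to 50.8) in the control. On chromosome 1 it was at 20180001 to 20181000, with 76.9% (73.2 to 80.4) in the TGF-beta library and 20.8% (16.9 to 25.2) in the control. On chromosome 13 it was at 15053001 to 15054000, with 64.5% (60.6 to 68.2) in the TGF-beta library and 29.8% (25.9 to 33.9) in the control. Read by strand, the first of these gained 56.0 points (plus) and 39.4 points (minus), and the second 63.6 and 53.1. The third gained 5.97 points on the plus strand, where it was at 96.9% in the TGF-beta library and 90.9% in the control, and 41.0 on the minus strand.

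The smallest difference on chromosome 15 was -8.80 points, at 54317001 to 54318000, with 44.3% (39.5 to 49.2) in the TGF-beta library and 53.1% (47.8 to 58.5) in the control. On chromosome 1 it was -13.0 points at 20135001 to 20136000, with 6.86% (4.18 to 10.5) in the TGF-beta library and 19.9% (15.8 to 24.4) in the control. On chromosome 13 it was -11.0 points at 15275001 to 15276000, with 22.6% (19.4 to 26.0) in the TGF-beta library and 33.6% (27.8 to 39.8) in the control. That window lay outside the right edge of the gain, at 15270001. All 3 windows were lower on each strand.

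Called lower were 1 window on chromosome 15, 2 on chromosome 1 and 0 on chromosome 13; these windows have fewer than 10 sites and were picked after their values were seen. At 53884001 to 53885000 on chromosome 15, a window of 8 sites was at 6.98% (4.19 to 10.8) in the TGF-beta library and 44.3% (36.4 to 52.4) in the control. At 20141001 to 20142000 on chromosome 1, a window of 6 sites was at 6.63% (4.29 to 9.70) in the TGF-beta library and 46.1% (41.2 to 51.1) in the control. Both were lower on each strand. The 10 kb bins that hold them differed by 13.9 points on chromosome 15 and 4.83 points on chromosome 1. The other, at 20093001 to 20094000, was at 35.3% in the TGF-beta library and 60.1% in the control by summed calls, but at 65.1% and 47.8% by the mean of its 5 sites. Its direction depended on how calls were spread over sites.

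Windows dense in CpG, which list 40 sites or more, numbered 2 on chromosome 15, 15 on chromosome 1 and 2 on chromosome 13. Over the 3 blocks their median level was 81.2% in the TGF-beta library and 73.3% in the control. Their median difference was 7.81 points, against 19.7 points in the 376 windows of 10 to 14 listed sites, and 7 of the 19 did not gain. Most of them lie on chromosome 1, where the medians were 7.81 and 23.0 points. On chromosome 13 the medians were 14.4 and 14.6 points, with 0 of its 2 dense windows under 5 points. Over the 3 blocks, dense windows also started at higher control levels than the 48.8% of those windows, and density was not separated from that level. Several dense windows lay outside the edges of the gain, and density was not separated from position either. On chromosome 15 the window at 54427001 to 54428000 was at 90.5% in the TGF-beta library and 86.3% in the control. The one at 54343001 to 54344000, with 67 listed sites, was at 89.8% and 91.7% by summed calls. From sites with at least 5 calls on a strand, it was at 82.8% and 65% on the plus strand. On the minus strand it was at 95.3% and 80%. Its control level rests on 265 calls over 43 sites, and its direction depended on which calls were used. On chromosome 13 the dense windows were adjacent, from 15272001 to 15274000, and lay outside the right edge of the gain, at 15270001. The first was at 81.2% (79.9 to 82.5) in the TGF-beta library and 70.7% (68.3 to 73.0) in the control, and the second at 54.5% (51.5 to 57.4) and 36.1% (32.01 to 40.4).

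On chromosome 1, the 3 dense windows with the most listed sites lay outside the edges of the gain. The window at 20060001 to 20061000, with 90 listed sites, was at 29.8% (27.5 to 32.2) in the TGF-beta library and 34.8% (30.8 to 39) in the control, and it belonged to the run of 8 that did not gain. Only 51 of its sites were covered, and its strands differed. From sites with at least 5 calls on a strand, the plus strand was at 0% in both libraries. The minus strand was at 38.0% in the TGF-beta library and 41.8% in the control. The windows at 19903001 and 19904001 were at 80.4% and 86.3% in the TGF-beta library and at 74.5% and 85.9% in the control. The dense windows at 20035001 and 20064001 also lay left of the left edge and differed by 3.61 and 15.4 points. All other dense windows of this block lay between the edges and differed by between -8.59 and 22.9 points. Between the edges, a window picked after its values were seen, at 20410001 to 20411000, stayed low: it was at 20.3% (18.9 to 21.7) in the TGF-beta library and 27.3% (24.8 to 29.9) in the control. By the mean of its 45 sites it differed by -0.0718 points. The next window, at 20411001 to 20412000, was at 69.4% in the TGF-beta library and 61.6% in the control.

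To see how the gain depended on the starting level, windows were classed by their control level on 1 strand and their difference was read on the other, since classing and differencing on the same calls would favour gains in low windows. On chromosome 15 the median difference was between 14.4 and 20.1 points in all 5 classes of control level, from under 20% to 80% and over, and in both directions of classing. On chromosome 1 it was 28.9 and 21.3 points in windows under 20%, and 4.90 and 6.08 points in windows at 80% or more. On chromosome 13 it was 25.9 and 16.0 points in the lowest class and 12.8 and 8.37 in the highest. The highest class held between 12 and 26 windows per block and direction. A class gives the level on the strand used for classing, and levels on the strand read were less extreme. On chromosome 15 the control medians on the strand read were 22.8% and 31.9% in the lowest class. In the highest class they were 69.9% and 77.2%, with classing on the plus strand first. Over all windows of the genome the medians of the 5 classes were between 0.273 and 0.526 points.

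**Figure D4:**
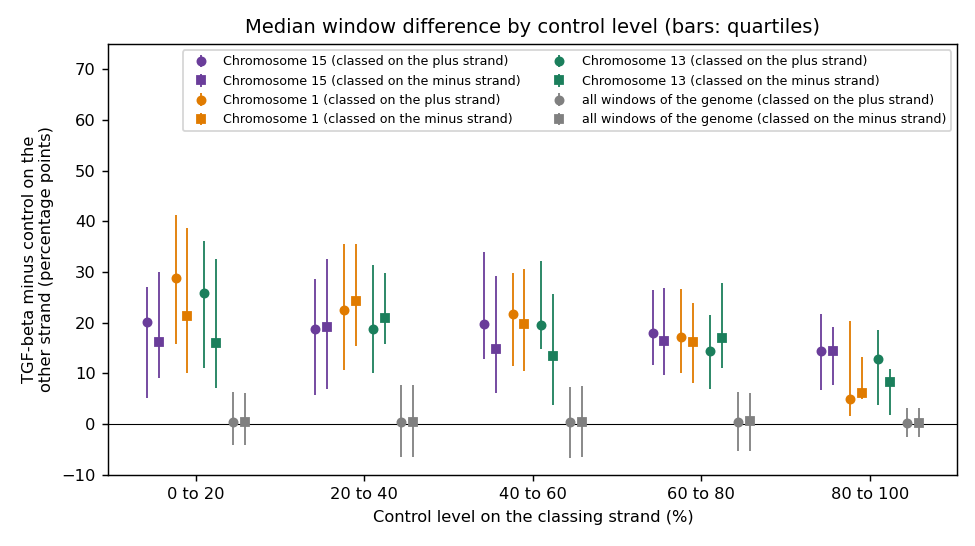
Median difference of windows (TGF-beta minus control, percentage points) on one strand, by their control level (%) on the other strand. Points are medians and bars quartiles over windows; circles are classed on the plus strand and squares on the minus strand. In the class under 20%, the medians of the blocks lie between 16.0 and 28.9 points, and those of all windows near 0.

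Single CpG sites shifted from low to high levels. Depth sets how often a site lands at an extreme, so the calls of each site with at least 10 calls in both libraries were drawn down to the smaller count. On chromosome 15, of 3449 sites, 11.4% were under 20% in the TGF-beta library and 26.3% in the control, and 50.97% were at 80% or more in the TGF-beta library and 28.6% in the control. On chromosome 1, of 5994 sites, 10.5% in the TGF-beta library and 27.1% in the control were under 20%, and 48.8% and 29.0% were at 80% or more. On chromosome 13, of 1977 sites, 7.49% in the TGF-beta library and 26.3% in the control were under 20%, and 46.6% and 28.4% were at 80% or more. At their own depths the shares under 20% were 11.2%, 10.4% and 7.13% in the TGF-beta library and 26.3%, 27.2% and 26.3% in the control.

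The blocks had nearly the same site distribution in the control and differed more in the TGF-beta library. Sites at 90% or more made up 38.7% in the TGF-beta library and 16.6% in the control on chromosome 15, 34.97% and 16.4% on chromosome 1, and 32.1% and 17% on chromosome 13. Sites under 10% made up 6.55% in the TGF-beta library and 17.7% in the control on chromosome 15, 6.31% and 17.6% on chromosome 1, and 3.54% and 16.2% on chromosome 13. The share between 20% and 80% was 37.6% in the TGF-beta library and 45.1% in the control on chromosome 15, 40.6% and 43.9% on chromosome 1, and 45.9% and 45.3% on chromosome 13. Sites called methylated in each drawn read were 15.5% in the TGF-beta library and 4.90% in the control on chromosome 15, 11.1% and 4.62% on chromosome 1, and 8.75% and 3.19% on chromosome 13. Median drawn calls per site were 22, 28 and 30 in these blocks, and fewer calls make such sites more frequent in each library, so their order between blocks is not comparable.

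Among these sites, 41.0% on chromosome 15, 39.5% on chromosome 1 and 40.9% on chromosome 13 were higher by 20 points or more in the TGF-beta library, beside 7.75% of the 18142161 such sites in windows of the genome. Lower by 20 points or more were 2.99%, 2.89% and 2.12%, beside 7.46% over the genome. Over all sites, 18.3% were under 20% in the TGF-beta library and 18.1% in the control, and 54.8% and 54.0% were at 80% or more. With TGF-beta the blocks came near to the genome in the share of high sites, while in the share between 20% and 80% they were above the 26.9% of all sites in that library.

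**Figure D5:**
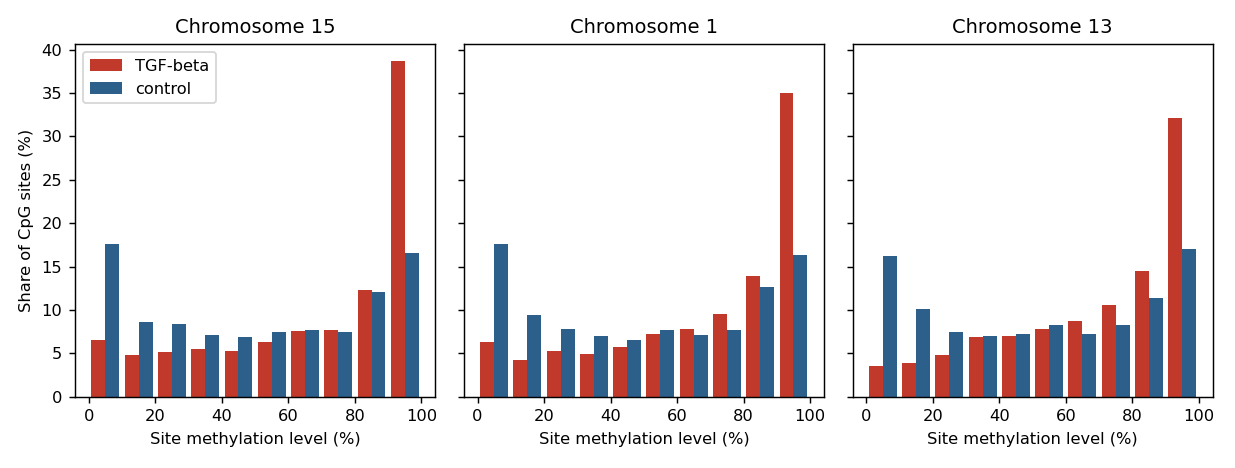
Share of CpG sites (%) by methylation level in classes of 10 points, TGF-beta red and control blue, with the calls of each site drawn down to the smaller count. Sites have at least 10 calls in both libraries. In each block the class of 90% and over is the tallest in the TGF-beta library, at 38.7%, 34.97% and 32.1%, whereas the control has similar heights at both ends.

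Covered sites outside the kept windows were also higher in the TGF-beta library. Such sites lie where CpGs are few or where few of them were covered. In windows of the blocks with fewer than 5 covered sites, the level was 61.0% in the TGF-beta library and 37.9% in the control on chromosome 15 (926 sites), 52.0% and 29.6% on chromosome 1 (242 sites), and 62.2% and 39.6% on chromosome 13 (613 sites). In the flanks, sites of such windows differed by between -1.88 and 8.60 points. These sites had lower levels than those of the kept windows in each block and each library.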

How the data were processed

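Whole-genome bisulfite sequencing gave 1 library per group. The deposited values are counts of methylated and unmethylated calls per CpG cytosine and strand, which the authors made from the reads. The submitters' processing notes list Bismark, Bowtie 0.12.8 and canFam3, but SOAPaligner2 is the aligner per the labels' protocols; removal of duplicates and of overlapping mates is not given in the sources used here. Adjacent cytosines were joined into 25888236 sites, and 22984712 had at least 5 calls in both libraries. The libraries held 1019766599 (TGF-beta) and 656122583 (control) calls; no header says which column is methylated, and it was taken as the one holding 0.329% and 0.211% of mitochondrial calls, on which the sign of each difference rests. In each file, 1 line naming no chromosome was left out. All windows were tested with Fisher's exact test, checked on simulated data. Edges are least-squares splits of bins with 20 or more sites and at least 5 bins per side. Windows compared by strand needed 20 calls per strand in each library, from sites with 5 calls on that strand. Named windows are the largest and smallest differences and up to 3 CpG-dense windows per block. The blocks and rules were chosen with earlier results of these data known. Tools were Python 3.11.15 with scipy 1.17.1, numpy 2.4.6, numba 0.67.0, pandas 2.3.3 and matplotlib 3.10.9. The annotation at hand was of another build and was not used here.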

Additional observations from a re-analysis of the deposited data

How the results depend on the processing

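No paired analysis was possible because each group has 1 library. In each alternative tried, the difference of each block stayed positive. In the order chromosome 15, 1 and 13, it was 17.9, 17.7 and 17.4 points with sites weighted equally, 17.5, 20.2 and 17.2 on the plus strand, 18.0, 18.5 and 17.3 with calls drawn to the smaller count, and 20.4, 19.4 and 20.3 with no minimum of sites per window. On chromosomes 15 and 1 it was 20.9 and 17.6 points on the minus strand and 18.9 and 18.7 with at least 10 calls per site, and without deep windows it was 19.8 on chromosome 1. Windows called higher numbered 103, 123 and 43 at 30 points and 71, 148 and 24 with at least 10 sites, where fewer windows were tested. With variances scaled to the spread between strands they numbered 107 on chromosome 15 and 69 on chromosome 13, and at 10 points 181 on chromosome 13. Windows that did not gain made up 5.44%, 7.92% and 5.69% at a limit of 0 points and 23.6%, 26.9% and 24.0% at 10 points, and 18.6% on chromosome 15 with at least 10 sites. The left edge on chromosome 15 moved to 53730001 with bins of 5 kb, 53720001 with bins of 20 kb, and 53710001 with sites weighted equally and on the minus strand. Its right edge moved to 54620001 on the plus strand. On chromosome 13 the left edge moved to 14780001 with bins of 20 kb, 14560001 with sites weighted equally and 14820001 on the plus strand, and the right edge to 15250001 on the plus strand. Both edges on chromosome 1 stayed within 10 kb. With limits of 10% and 90%, intermediate sites differed by -11.2 points on chromosome 15 and -7.22 on chromosome 1; on chromosome 13 the difference of 0.556 points became -1.47. The causes were not tested. With 1 library per group, the spread between cultures is unknown.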
